A study of Oryctolagus cuniculus with 8 samples.

Results

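The subject is the miR-221 and miR-222 pair in small RNA sequenced from extracellular vesicles of rabbit uterine and oviductal fluid. Such vesicles are membrane-bound particles, shed by cells, that carry RNA and protein. Every mature name of either precursor was taken, with both arms, which are cut from the opposite strands of the hairpin. This gave 4 names of the 579 in the table, ocu-miR-221-3p, ocu-miR-221-5p, ocu-miR-222-3p and ocu-miR-222-5p, written below without the species prefix, and 3 of the 4 had at least 1 read. The uterine group held 3 libraries, numbered 12, 3 and 4, each a pool of 5 animals per the labels. The library titled 12 is numbered 1 in its library name, and it may join more than 1 replicate. The oviductal group held 5 libraries, numbered 1 to 5, each a pool of 3 animals. All 21 does were wild-type, multiparous California x New Zealand white rabbits. All of them were synchronized with the gonadotropin eCG (25 IU) and, after 48 h, ovulated on a synthetic GnRH analogue (20 µg). Tracts were collected at least 14 to 15 h later. The pools together have more places than there were does, so at the labelled pool sizes some does are in more than 1 library. The libraries are then not fully independent, which the tests do not take into account, and p-values measure the spread between pools. No group without the hormones is in the series.

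MicroRNAs are short RNAs that guide the silencing complex to messenger RNAs, chiefly through the seed, the bases near the 5′ end. In mammals miR-221 and miR-222 lie next to each other on the X chromosome, are made from a common primary transcript and share their seed, and the 3p arm is the usual guide of both. Known targets in human and mouse cells are CDKN1B, the cell cycle inhibitor p27, KIT, a receptor for stem cell factor, and TIMP3, an inhibitor of matrix proteases. The pair is best known from proliferating vascular smooth muscle, endothelium, developing red cells and carcinomas. In the rabbit annotation mOryCun1.1 the genes MIR221 and MIR222 were neighbours, with 0 annotated genes between them.

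Depth ran from 232546 to 479865 miRNA reads in the uterine group and from 42684 to 569087 in the oviductal group, with each miRNA counted on 1 row. The shallowest were oviductal replicates 3 and 2, and a single read stood for 23.4 and 21.0 CPM (miRNA reads scaled to a library sum of 1000000) in them, against 1.76 CPM in oviductal replicate 5. Ranges of CPM given for single libraries are exact Poisson intervals at 95% and cover counting error only. The reads are shares of a library. Fewer vesicles from a cell type and fewer copies per vesicle therefore cannot be told apart.

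The pair was a minor part of the cargo. All arms together made up 0.0275%, 0.0702% and 0.255% of the reads of uterine replicates 12, 3 and 4. In oviductal replicates 1 to 5 they made up 0.0967%, 0.124%, 0.143%, 0.189% and 0.119%. The lowest and the highest share were both uterine, and the oviductal values lay between them. The mean was 0.117% ± 0.121 in uterine (SD, n = 3) and 0.134% ± 0.0345 in oviductal vesicles (SD, n = 5). The difference of -0.0168 percentage points gave p = 0.786 by exact two-sided permutation over the 56 ways to assign the libraries to the groups, where the smallest possible p is 0.0357. Its sign turned when uterine replicate 12 or uterine replicate 3 was left out, to 0.0282 and 0.00686. Without uterine replicate 4 the difference was -0.0854 (exact two-sided permutation p = 0.0952, the smallest possible with a uterine library left out).

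The 3p arm of miR-221 had 36 reads in uterine replicate 12, 107 in replicate 3 and 138 in replicate 4, which are 155, 223 and 474 CPM. In oviductal replicates 1 to 5 it had 192, 21, 38, 197 and 176 reads, which are 435, 441, 890.3, 774 and 309 CPM. In CPM, 2 of the 3 uterine libraries lay below every oviductal library and 1 lay inside the oviductal range, so the groups overlapped. On the TMM-scaled values behind the fold change, replicate 3, at 335 CPM, also lay above the lowest oviductal library, at 279.7 CPM. The interval of uterine replicate 12 ran from 108 to 214 CPM and that of oviductal replicate 5, the lowest oviductal library, from 265 to 358 CPM. The uterine libraries averaged 284 ± 168 CPM (SD, n = 3) and the oviductal libraries 569.9 ± 248 CPM (SD, n = 5). The log2 fold change of miR-221-3p, uterine over oviductal, was -0.72 ± 0.68 (SE), with an edgeR adjusted p of 0.715 and a 95% interval from -2.15 to 0.70. That interval reaches from 0.226 to 1.62 times the oviductal level.

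The 3p arm of miR-222 had 24, 228 and 602 reads in uterine replicates 12, 3 and 4, which are 103, 475 and 2066 CPM. In oviductal replicates 1 to 5 it had 233, 34, 17, 272 and 499 reads, which are 528, 714, 398, 1068 and 877 CPM. Its highest and its lowest library were both uterine, 20.0-fold apart, while the oviductal libraries spanned 2.68-fold. Uterine replicate 4 stood above every oviductal library, with an interval from 1905 to 2238 CPM, and replicate 12 below every one, from 66.1 to 154 CPM. The uterine libraries averaged 882 ± 1043 CPM (SD, n = 3) and the oviductal libraries 717 ± 268 CPM (SD, n = 5). The log2 fold change of miR-222-3p was 0.36 ± 0.70 (SE), with an edgeR adjusted p of 0.888 and a 95% interval from -1.12 to 1.83. Without uterine replicate 4 it was -0.60. By limma-voom it was -0.16, where the median of all tested miRNAs was -0.40, so relative to that median it stayed positive, at 0.25, beside 0.38 in edgeR.

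The 5p arm of miR-221, the usual passenger strand, had 34 reads in all. They were 4, 2 and 2 in uterine replicates 12, 3 and 4 and 2, 4, 6, 11 and 3 in oviductal replicates 1 to 5. On average miR-221-5p reached 9.41 ± 6.88 CPM in the uterine libraries (SD, n = 3) and 55.5 ± 57.7 CPM in the oviductal ones (SD, n = 5). Its log2 fold change was -1.87 ± 1.58 (SE), with an edgeR adjusted p of 0.665. The arm passed the filter for testing only through oviductal replicates 2, 3 and 4, where it was highest. The negative sign is therefore no support for a difference. The highest values, 84.0 and 141 CPM, came from the shallow oviductal replicates 2 and 3, where they rest on 4 and 6 reads. The arm miR-222-5p had 0 reads in every library and was not tested. Beside 1909 reads of miR-222-3p, a count of 0, by a floor of 3 reads, allows it a share of up to 0.157% of the reads of that precursor.

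None of the 3 tested members passed the adjusted threshold of 0.05. In the same fit 3 of all 178 tested miRNAs passed (1.69%), all higher in uterine vesicles, so 0 of 3 is close to the background. That count rested on single libraries, with 27 of 200 without uterine replicate 3 (12 higher and 15 lower) and 0 without both of the shallowest, where 20 had an unadjusted p under 0.05. No member was called in either. Without adjustment 28 of the 178 had p under 0.05 (15.7%), none of them a member. The groups did not overlap on the scaled values in 24 miRNAs (13.5%), and in none of the members. The members had 1 positive and 2 negative log2 fold changes with a median of -0.72, and all tested miRNAs had 87 positive and 91 negative with a median of -0.02.

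**Figure D1:**
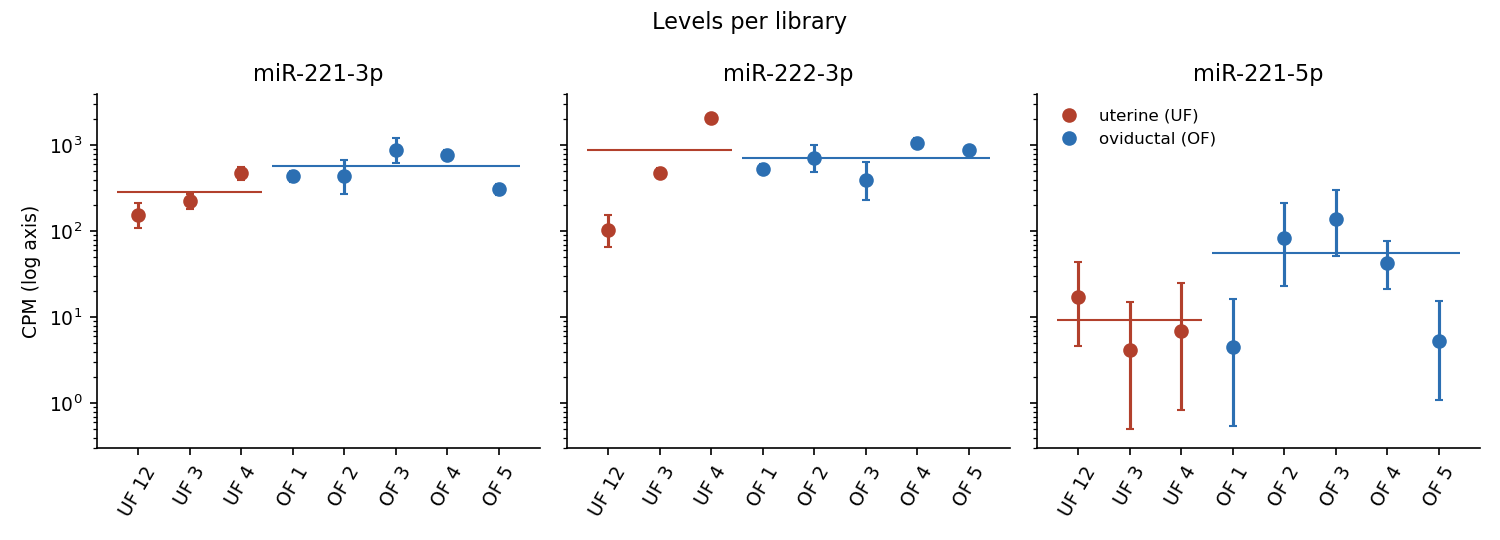
CPM on a log axis of both arms of miR-221 and of miR-222-3p in each uterine (UF) and oviductal (OF) library, with exact 95% Poisson intervals as bars and group means as lines. For miR-222-3p the uterine libraries sit at 103, 475 and 2066 CPM, below, inside and above the oviductal range of 398 to 1068 CPM.

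**Figure D2:**
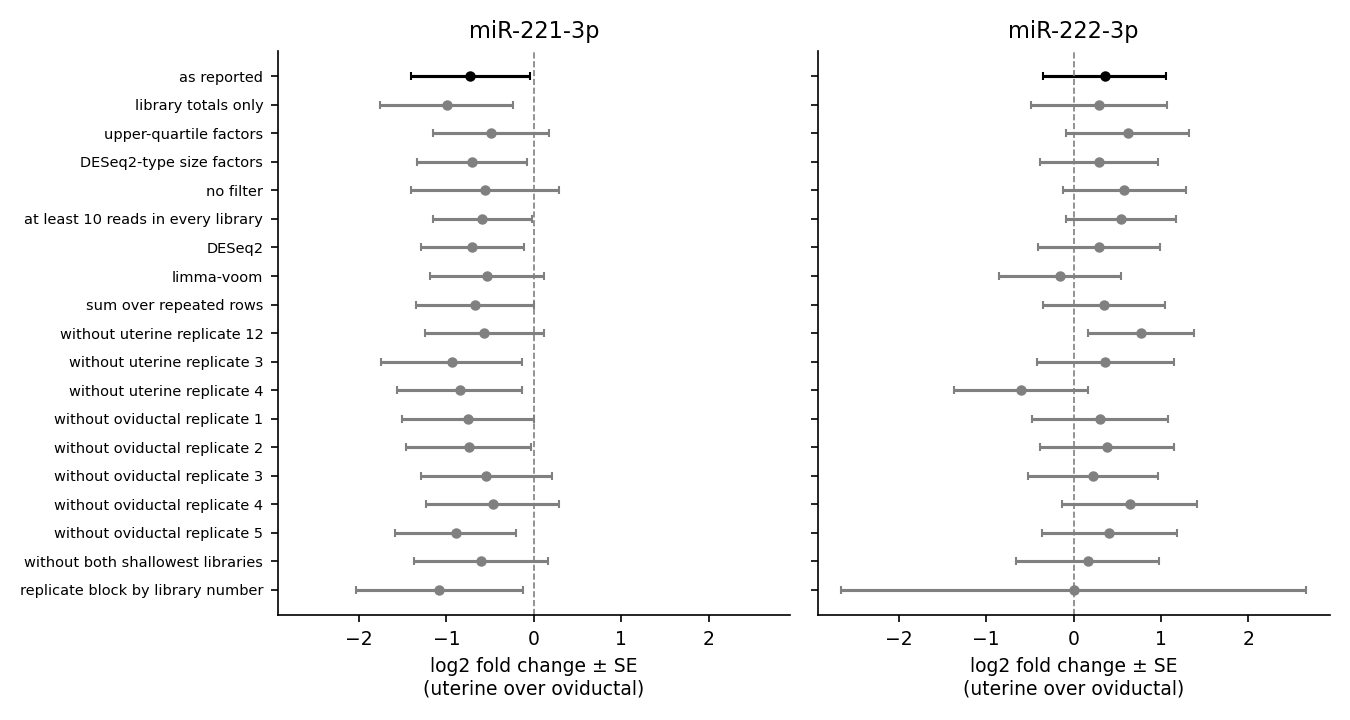
Log2 fold change (uterine over oviductal) of the leading arms, miR-221-3p on the left and miR-222-3p on the right, as reported, in black, and under each alternative processing, in grey, with SE as bars. All values of miR-221-3p are negative, from -1.08 to -0.47. Those of miR-222-3p run from -0.60 without uterine replicate 4 to 0.77 without uterine replicate 12.

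In the order of mean levels over all 8 libraries miR-222-3p took place 65 and miR-221-3p place 75 of the 354 miRNAs with a read. In uterine vesicles miR-222-3p took place 61 and miR-221-3p place 93. In oviductal vesicles they took places 64 and 69. Within single libraries the rank of miR-222-3p ran from 40 to 112 in uterine and from 56 to 84 in oviductal libraries, and that of miR-221-3p from 83 to 103 and from 62 to 83. In uterine vesicles miR-222-3p stood between miR-182-5p at 883 ± 437 CPM and miR-23b-3p at 845 ± 322 CPM (SD, n = 3). There miR-221-3p, at 284 CPM, stood between miR-425-5p at 285 ± 40.0 CPM and miR-211-5p at 271 ± 73.8 CPM (SD, n = 3). In oviductal vesicles miR-222-3p, at 717 CPM, stood between miR-6529-5p at 779 ± 483 CPM and miR-34c-3p at 642 ± 311 CPM (SD, n = 5). There miR-221-3p stood between miR-96-5p at 595 ± 225 CPM and miR-451-5p at 556 ± 404 CPM (SD, n = 5). All of these neighbours differed from the member beside them by less than 1 SD. The coefficient of variation of miR-222-3p was 118% in uterine and 37.3% in oviductal libraries, and over all tested miRNAs the medians were 88.8% and 57.2%. For miR-221-3p it was 59.2% and 43.6%.

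The balance within the pair was compared next, since a ratio of reads from the same library does not depend on how libraries are scaled. Levels of different miRNAs in small RNA libraries also carry the preferences of adapter ligation, so the ratio is read between libraries and not as an absolute one. For each read of miR-221-3p there were 0.667 reads of miR-222-3p in uterine replicate 12, 2.13 in replicate 3 and 4.36 in replicate 4. In oviductal replicates 1 to 5 there were 1.21, 1.62, 0.447, 1.38 and 2.84. The ratio spanned 9.75-fold, and its highest value was uterine and its lowest oviductal. As a share of the reads of both 3p arms, miR-222-3p made up 81.4% in uterine replicate 4, with an exact Clopper-Pearson interval from 78.4% to 84.1%. In uterine replicate 12 it made up 40.0%, with an interval from 27.6% to 53.5%. In oviductal replicate 3, a shallow library with 55 reads of both arms, it made up 30.9%, from 19.1% to 44.8%, and in oviductal replicate 5 it made up 73.9%, from 70.4% to 77.2%. The intervals of these extremes do not overlap within either group, so the libraries of a group differed in the ratio by more than counting error.

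Between the groups the ratio differed by less than the spread within them. The mean log2 ratio of miR-222-3p to miR-221-3p was 0.88 ± 1.36 in uterine (SD, n = 3) and 0.36 ± 0.96 in oviductal vesicles (SD, n = 5). The difference was 0.52 (exact two-sided permutation p = 0.571, or 0.786 adjusted over the 3 exact tests made here). Without uterine replicate 4 the difference was -0.10, and without uterine replicate 12 it was 1.25 (exact two-sided permutation p = 0.190). The log2 fold changes of the 3p arms, which have opposite signs, were therefore not shown to differ.

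The arms of miR-221 were treated in the same way. The 5p arm made up 10%, 1.83% and 1.43% of miR-221 reads in uterine replicates 12, 3 and 4. It made up 1.03%, 16.0%, 13.6%, 5.29% and 1.68% in oviductal replicates 1 to 5. The high shares in both groups stood in the libraries with the fewest miR-221 reads, which are uterine replicate 12 and oviductal replicates 2 and 3. The part of depth in this was not tested. The exact interval of oviductal replicate 2 ran from 4.54% to 36.1%, that of replicate 3 from 5.17% to 27.4% and that of replicate 1 from 0.125% to 3.67%, so the first and the second lay apart from the third. The mean log2 ratio of the 5p to the 3p arm was -4.75 ± 1.51 in uterine (SD, n = 3) and -4.17 ± 1.79 in oviductal vesicles (SD, n = 5). The difference was -0.58 (exact two-sided permutation p = 0.679, adjusted 0.786). Without both of the shallowest libraries the difference turned to 0.60 (exact two-sided permutation p = 0.6, where the smallest is 0.1).

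**Figure D3:**
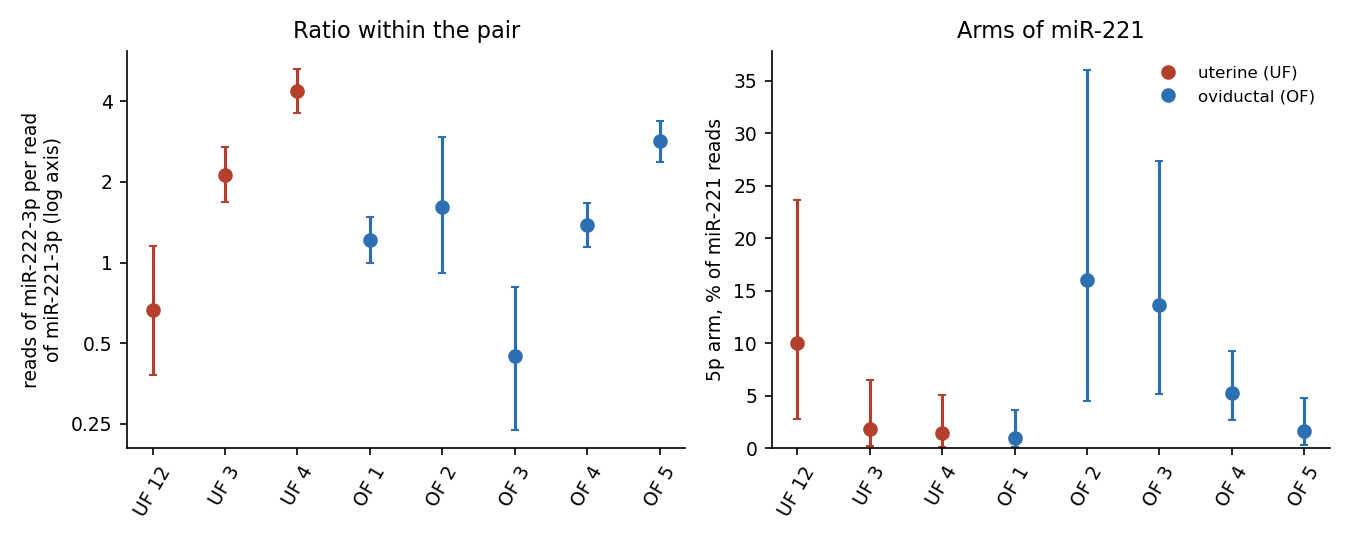
Left, reads of miR-222-3p per read of miR-221-3p in each uterine (UF) and oviductal (OF) library on a log axis. Right, the 5p arm as a percentage of miR-221 reads. Bars are exact 95% Clopper-Pearson intervals. The ratio runs from 0.447 in oviductal replicate 3 to 4.36 in uterine replicate 4, and the 5p share is highest in oviductal replicates 2 and 3.

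To place this spread, the ratio was compared with those of other neighbouring miRNA genes, a description made after the values of the pair were seen. In 21 pairs of neighbouring genes no more than 10 kb apart both leading arms were tested and had a mean of at least 100 CPM. The SD of the log2 ratio over 8 libraries was 1.06 for miR-222-3p over miR-221-3p, which took place 10 of 21, beside a median of 0.99. Wider ratios included miR-143-3p over miR-145-3p at 2.86 and miR-182-5p over miR-96-5p at 2.64, in both of which the lower miRNA had 0 reads in a uterine library. Tighter ones included miR-191-5p over miR-425-5p at 0.53 and miR-34c-5p over miR-34b-3p at 0.51. Within the oviductal libraries alone the SD of the pair was 0.96, place 6 of 21, beside a median of 0.58. Over the 6 libraries left without the shallow oviductal replicates 2 and 3 it was 0.96, place 12 of 21, beside a median of 1.03. Some of the other names, the let-7 ones among them, stand for several precursors, and their ratios can mix genes.

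**Figure D4:**
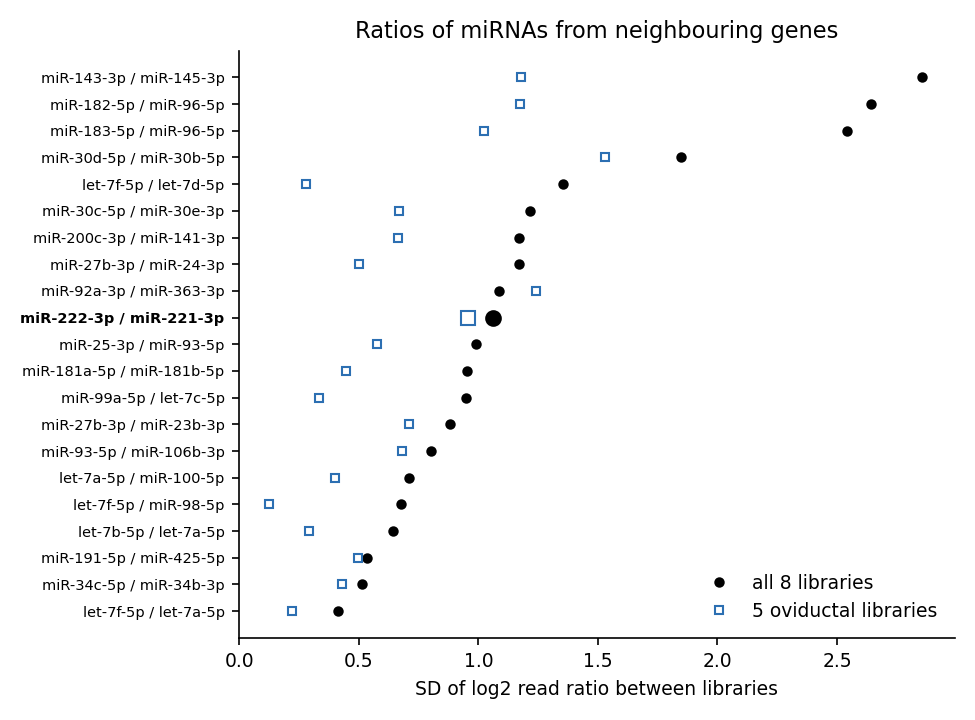
SD between libraries of the log2 read ratio for 21 pairs of miRNAs from neighbouring genes, over all 8 libraries (filled circles) and over the 5 oviductal libraries (open squares). The ratio of miR-222-3p to miR-221-3p, in bold, lies at 1.06 and 0.96.

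The patterns of the members across the 8 libraries were compared with those of the other 130 tested miRNAs of at least 100 CPM by Pearson's r of scaled log2 CPM, given as a description. The pattern of miR-222-3p was not among the 5 most like that of miR-221-3p. Its r with miR-221-3p was 0.36 (Spearman's rho 0.29), place 49 of 130. The miRNAs most like miR-222-3p were miR-423-3p (r = 0.95, rho 0.98) and miR-24-3p (r = 0.95, rho 0.95). Next came miR-150-5p, known from lymphocytes (r = 0.88, rho 0.95), miR-872-5p (r = 0.85, rho 0.55) and miR-135b-5p (r = 0.77, rho 0.62). Without uterine replicates 12 and 4, the libraries farthest from the median of miR-222-3p, r was 0.80 for miR-423-3p, 0.78 for miR-24-3p, 0.92 for miR-150-5p and 0.09 for miR-135b-5p. The level of miR-24-3p, a member of the miR-23, miR-27 and miR-24 clusters, was 529, 1901 and 8080.2 CPM in uterine replicates 12, 3 and 4. In oviductal replicates 1 to 5 it was 3207, 2374, 2694, 4871 and 5280.4 CPM. As with miR-222-3p, uterine replicate 12 was the lowest and uterine replicate 4 the highest of all libraries. The level of miR-423-3p was 1896, 3830.2 and 9402 CPM in the same uterine libraries and 4815 to 7318 CPM in the oviductal ones.

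The miRNAs most like miR-221-3p were miR-328-3p (r = 0.81), miR-125b-5p, of the family of lin-4 (r = 0.79), miR-28-3p (r = 0.79), miR-216b-5p (r = 0.79) and miR-361-3p (r = 0.77). Without oviductal replicates 3 and 4, the libraries farthest from the median of miR-221-3p, r lay between 0.63 for miR-361-3p and 0.90 for miR-28-3p, and was 0.69 for miR-222-3p. The r of miR-221-3p with miR-222-3p thus depended on which libraries were kept, since it was -0.13 without uterine replicates 12 and 4. The level of miR-328-3p was 0, 52.1 and 367 CPM in uterine replicates 12, 3 and 4. The highest of its oviductal values, 398 CPM, stood in replicate 3, as did that of miR-221-3p in CPM. These values rest on 17 and 38 reads of a shallow library. On the scaled values behind r, miR-221-3p was highest in oviductal replicate 4, at 789 CPM, against 691 CPM in replicate 3. All miRNAs share the library and its total, so their values within a library are not independent.

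**Figure D5:**
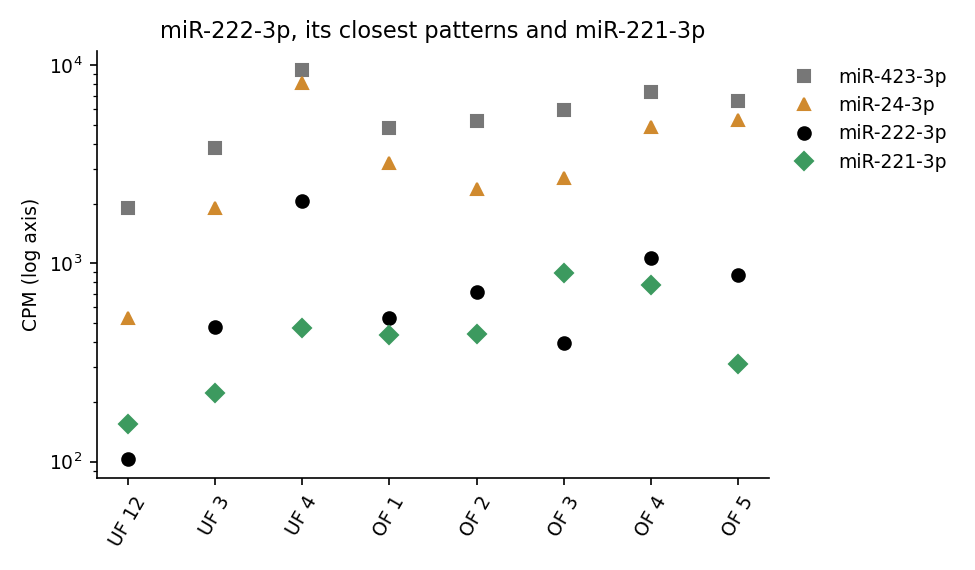
CPM on a log axis of miR-423-3p, miR-24-3p, miR-222-3p and miR-221-3p in each uterine (UF) and oviductal (OF) library. For the first 3 of them uterine replicate 12 is lowest and uterine replicate 4 highest, while miR-221-3p is highest in oviductal replicate 3 at 890.3 CPM.

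Markers of cells from which the pair is best known, namely vascular smooth muscle, endothelium and erythroid cells, were read in the same libraries. Lists for leukocytes, epithelium and mesenchymal cells were read beside them. The counts of all lists stand beside 1.69% called and 48.9% positive over all tested miRNAs. The vascular smooth muscle list had 5 tested members, all with positive log2 fold changes (median 1.85), and 1 was called higher, miR-143-3p at 2.81 ± 0.48 (SE; edgeR adjusted p 0.00261). That call held in each removal of a single library (edgeR adjusted p of at most 0.0341), by DESeq2 (adjusted p 2.22e-05) and by limma-voom (adjusted p 0.0142). It was lost without both of the shallowest libraries, at 2.74 (edgeR adjusted p 0.171), in a fit that called 0 miRNAs. With a replicate block by library number the value was 2.49 (edgeR adjusted p 0.327), in a fit that called 0 of 178 miRNAs. Oviductal replicates 2 and 5 have no uterine library of their number, so the block compares few libraries and cannot decide on this call. Next in level was miR-21-5p, at 0.60 ± 0.39 (SE). For endothelium, 0 of the names written were found in the table. The erythroid list had 2 tested members, miR-486-5p at 0.44 and miR-451-5p at 2.16, neither called. Among leukocyte miRNAs 4 were positive and 1 was negative, none called. The most abundant of them, miR-155-5p, was at 0.03, followed by miR-150-5p at 0.94. The epithelial list had 1 positive and 4 negative members with a median of -1.13, none called, led by miR-200c-3p at -1.13 and miR-375-3p at -1.31. The mesenchymal list had 6 positive and 1 negative member with a median of 1.07, none called, and its most abundant member, miR-10b-5p, was at 1.22, followed by miR-10a-5p at 1.07.

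Uterine replicate 4, where miR-222-3p was highest, also had the highest summed level of 4 of these lists. The vascular smooth muscle list, which holds the widely expressed miR-21, made up 3.78%, 1.14% and 5.95% of reads in uterine replicates 12, 3 and 4 and 1.18% to 1.54% in the oviductal libraries. Erythroid miRNAs made up 0.362%, 0.123% and 0.768% in those uterine libraries, against 0.0922% to 0.288% in oviductal ones. Leukocyte miRNAs made up 0.144%, 0.107% and 0.374%, against 0.125% to 0.249%. Mesenchymal miRNAs made up 10.3%, 5.83% and 13.7%, against 3.42% to 7.10%. Epithelial miRNAs were lowest in uterine replicate 12, where both 3p arms of the pair were lowest, at 0.722%, with 3.02% and 1.98% in uterine replicates 3 and 4 and 5.42% to 6.19% in the oviductal libraries. In uterine replicate 12 the muscle, erythroid and mesenchymal lists stood above every oviductal library while miR-221-3p and miR-222-3p stood below every one. The part of these cell types in the values of the pair was not tested.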

How the data were processed

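Small RNA reads of 8 libraries were analysed from the deposited table, whose whole-number counts give the reads of each mature miRNA on each of its precursors. The same table holds RPM values made by the authors, which equal the count over the column sum on a scale of 1000000 (largest difference 0.005). They were used for this check only. Per the submitters' processing notes FastQC was run and the genome build was OryCun2.0. For the aligner and the counter the sources used here name nothing. Uterine replicate 12, after its title, is numbered 1 in its library name. Whether that library joins material of replicates 1 and 2, which would change its pool size, is not settled by the labels. The table has 615 rows for 579 names, and each of the 35 repeated names was represented by its most read row. No member was repeated, and 0 members had a profile identical to that of another name.

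Counts were tested with edgeR 4.0.16 (quasi-likelihood, robust, TMM, filterByExpr, Benjamini-Hochberg adjustment over all 178 tested, threshold 0.05) under R 4.3.3. The procedure was also run on simulated data with changes far larger than those of the members, so that run says nothing of power for changes of their size. CPM were not TMM-scaled. Log2 ratios used a pseudocount of 0.5 reads. The ratios and percentages of reads given for single libraries used none. Ratios and shares were compared by exact permutation over 56 assignments of libraries to groups. Alternatives used DESeq2 1.42.0 and limma 3.58.1. Names of genes and which of them are neighbours were taken from the RefSeq annotation mOryCun1.1, where 304 of 306 precursors matched. Its build differs from that of the files, so its positions served only to find neighbouring genes, no more than 10 kb apart in that annotation, and none is printed. The miRNAs named besides the members were the 5 most alike in pattern, the next in level and the 2 most abundant of each list. The pair and the lists were chosen with earlier results of these data known. A list of miRNAs grouped by a shared target is not reported here.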

Additional observations from a re-analysis of the deposited data

How the results depend on the processing

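The log2 fold change of miR-221-3p stayed negative and unadjusted p stayed above 0.05 in all 18 alternatives, from -1.08 to -0.49, and from -0.94 to -0.47 when single libraries were left out, with adjusted p from 0.503 to 0.932. That of miR-221-5p stayed negative in the 13 alternatives in which it was tested, from -2.40 to -0.72, and from -2.80 to -1.43 in the 5 removals of a single library that left it tested. Without oviductal replicate 2, 3 or 4, among them its highest libraries, it did not pass the filter. DESeq2 gave it no adjusted p. That of miR-222-3p turned to -0.16 by limma-voom and ran from -0.60 to 0.77 when single libraries were left out, and it did not pass in any alternative (adjusted p 0.693 to 1.00). The log2 ratio of miR-222-3p to miR-221-3p differed between the groups by -0.10 to 1.25 when single libraries were left out, and by 0.13 without both of the shallowest libraries. The log2 ratio of the arms of miR-221 differed by -1.44 to -0.05 when single libraries were left out, and by 0.60 without both of the shallowest. The share of the pair differed by -0.0854 to 0.0282 percentage points when single libraries were left out. With a library left out, or without both shallow ones, the exact tests cannot go below 0.0571, so they say nothing of stability. The cause of these changes was not tested.

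The median of all tested miRNAs moved from -0.02 to -0.31 with library totals only and to 0.19 with upper-quartile factors, and was -0.40 by limma-voom, while miR-221-3p was at -1.0 and -0.49 and miR-222-3p at 0.30 and 0.62 under the scalings. Relative to the median miR-222-3p was at 0.25 by limma-voom and 0.38 in edgeR. The number of miRNAs called, 3, was 1 with library totals only, 6 with upper-quartile factors, 13 with no filter, 8 with at least 10 reads in every library, 11 by DESeq2, 1 by limma-voom and 7 with repeated rows summed. It was 0 by edgeR without both of the shallowest libraries (20 at an unadjusted p under 0.05), and 1 to 27 when single libraries were left out.

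Libraries of the same number did not deviate together, with r of -0.14, -0.13 and -0.11 for numbers 1, 3 and 4 over 178 miRNAs. These few correlations between different fluids cannot decide whether libraries of a number share does, so pairing was not settled. With a replicate block by library number miR-221-3p was at -1.08, miR-221-5p at -1.88 and miR-222-3p at 0.00, the ratio of the pair differed by 1.01, that of the arms by -0.43 and the share by -0.0252, and edgeR called 0 miRNAs (11 at an unadjusted p under 0.05).

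Depth limits the 5p arm most. With 2 to 11 reads per library its level is set by single reads, and miR-221-3p and miR-222-3p rest on 21 to 38 and 17 to 34 reads in the shallow libraries. Leaving out those libraries for the ratios, the same for the share, and the block for the share were chosen after seeing the data.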

Other observations

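Arms of all precursors were read beside those of the pair. Of the 78 precursors with both arms in the table and at least 900 reads of the leading arm, a minimum set after the total of miR-221-3p was seen, the other arm had 0 reads in 21, miR-222 among them. The leading arm was the 3p arm in 31. The other arm held a median of 0.118% of reads, and 3.62% in miR-221, which was exceeded in 15 precursors. Some names, let-7a among them, stand for several precursors, and each of these was given all reads of the shared leading arm. Such entries repeat in the counts, and the share of their other arm can be too low.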
